A study of Mus musculus with 5 samples.

Results

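Ndufs5 and BC002163 are a parent gene and its near-identical copy in the mouse genome, and they are 2 of the 54232 genes in the table of normalized read counts from differentiated primary myoblasts. Both were chosen by their measured values in these samples, Ndufs5 for a low value in the mutant myoblasts and BC002163 for a high one, so the differences between the genotypes at these genes are a description and were not tested. Both members passed the filter on low values, which kept the 18156 genes that reached 5 normalized counts in any 1 of the samples. Ndufs5 (ENSMUSG00000028648) codes for protein and lies at chr4:123712710-123718202, minus strand (GRCm38, GENCODE M21). BC002163 (ENSMUSG00000081824) is annotated as a processed pseudogene on the plus strand of chr16:42955631-42955949, a single exon of 319 bases.

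Primary myoblasts, the muscle precursor cells that fuse into myotubes, were isolated from mouse leg muscles with magnetic beads for satellite cells and integrin alpha-7. They were kept for 72 h in differentiation medium with horse serum before RNA was taken. Samples came from WT mice (n = 3) and from Elmo2EID/EID mice (n = 2), which carry on both alleles, in every cell, a point mutation that opens the conformation of the adaptor protein ELMO2. Animals of the study were on a mixed C57BL6 and 129SV background, those used for myoblasts were 6 to 8 weeks old, and no group received another agent. The study sequenced these cells to ask whether lasting expression of the opened ELMO2 was accompanied by changes in other genes. The study typically isolated primary cells from independent mice, but the labels do not tie these samples to animals, so p-values measure the spread between these samples, which may be technical.

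NDUFS5 is an accessory subunit of complex I, the NADH dehydrogenase that passes electrons into the respiratory chain of mitochondria and pumps protons across the inner membrane. It is one of the small subunits with a twin CX9C motif, which are made in the cytosol and folded by disulfide bonds as they are brought into the intermembrane space by CHCHD4 and GFER. Differentiating muscle cells depend increasingly on oxidative phosphorylation, and genes for complex I subunits are abundantly transcribed in them. A processed pseudogene arises when a spliced mRNA is reverse-transcribed and inserted elsewhere in the genome, so it lacks the introns of its parent, and a copy made recently enough can share long stretches of identical sequence with it.

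The copied sequence was compared with its parent first, because it determines which reads can be assigned to either gene. The Ndufs5 transcript used for this has 525 bases in 3 exons, with 92 bases of 5′ UTR, a coding sequence of 321 bases and 112 bases of 3′ UTR. All 319 annotated bases of BC002163 aligned without a gap to bases 1 to 319 of that coding sequence, with 99.4% identity, and ran through the junction of exons 2 and 3 without the intron. The first 180 bases of both sequences are shown because they hold both bases at which the genes differ, in capitals. They were read from GENCODE M21 transcripts, 5′ to 3′ from the start codon, and lie at chr4:123715900-123716079 on the minus strand for Ndufs5 and at chr16:42955631-42955810 on the plus strand for BC002163.
Ndufs5: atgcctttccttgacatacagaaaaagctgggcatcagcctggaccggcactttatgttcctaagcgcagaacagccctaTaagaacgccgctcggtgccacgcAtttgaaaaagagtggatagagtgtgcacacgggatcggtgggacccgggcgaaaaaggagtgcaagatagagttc
BC002163: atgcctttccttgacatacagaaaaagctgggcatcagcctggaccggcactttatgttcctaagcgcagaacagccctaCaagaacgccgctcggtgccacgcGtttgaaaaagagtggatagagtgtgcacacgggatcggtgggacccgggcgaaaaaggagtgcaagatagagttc

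Counted from 1 at the A of the start codon, with the base of Ndufs5 first, the differences were T81C and A105G. T81C lies at position 123715999 of chromosome 4 and 42955711 of chromosome 16. A105G lies at position 123715975 of chromosome 4 and 42955735 of chromosome 16. Both fall in exon 2 of Ndufs5, at the third base of codons 27 and 35, and both leave the encoded amino acid as it is. Between them lie 23 bases, and 80 bases before the first and 214 bases after the last were identical in parent and copy. The remaining 139 bases of the copy, shown once because parent and copy hold the same letters there, end 2 bases before the coding sequence of Ndufs5 does.
Ndufs5 and BC002163, bases 181 to 319: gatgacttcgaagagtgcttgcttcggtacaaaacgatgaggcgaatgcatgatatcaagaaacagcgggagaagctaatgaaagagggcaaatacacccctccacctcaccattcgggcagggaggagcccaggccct

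The reading frame of the copy held 0 stop codons over its annotated length. Among all GENCODE M21 transcripts, BC002163 was the only other gene that matched the Ndufs5 coding sequence over at least 50% of its length at 80% identity or more. Sequence beyond the annotated ends of the copy was not analysed here.

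The libraries were read as pairs of 50-base reads, so this Ndufs5 transcript was divided into its 476 windows of 50 bases. Of these, 196 windows (41.2%) lay inside the copied stretch with the same letters in BC002163, 48 (10.1%) contained 1 differing base and 26 (5.46%) contained 2. A further 98 windows (20.6%) lay partly in the copied stretch, and 108 (22.7%) lay outside it. Seen from the copy, 196 of its 270 windows (72.6%) were found in Ndufs5 and 74 (27.4%) held a differing base. No transcript of a gene other than BC002163 held any of the 476 windows. The authors counted uniquely mapped reads, and a read with the letters of a shared window has an equal match in both genes unless its mate decides the position. The windows describe single reads, so 41.2% is not the share of read pairs that match both genes. Which bases the reads of these samples carried at either differing position was not analysed here, because the files hold counts per gene.

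**Figure D1:**
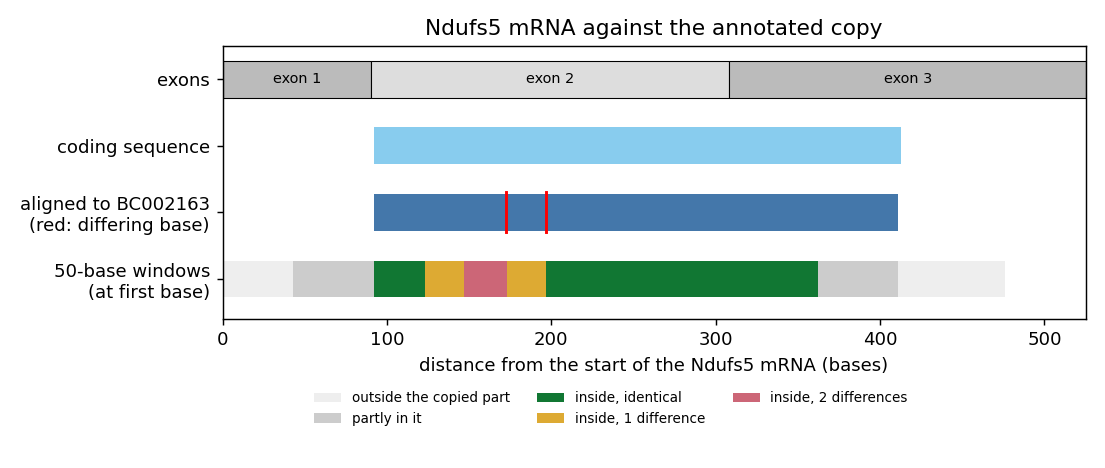
Map of the 525-base Ndufs5 mRNA by distance from its start in bases, with its exons, its coding sequence, the 319 bases aligned to BC002163 (differing bases in red) and the kind of 50-base window that begins at each base. The identical windows (196 of 476, green) lie mostly after the second differing base.

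Values are normalized counts, that is reads per gene divided by the size factor of the sample, and the reads behind them were recovered exactly. Recovered totals were 35021856 to 49381544 reads per sample, and 3 reads corresponded to 2.65 to 3.73 normalized counts. Elmo2 itself had 1642, 1539 and 1660 normalized counts in WT and 1441 and 1327 in the mutant samples (limma adjusted p = 0.226). Its codon change alters no RNA level by design, so this does not check the labels. All 8 muscle markers were expressed and 0 were called by limma, edgeR or DESeq2, with summed values of 1696082 to 1956410 in WT and 1658428 to 2060897 in Elmo2EID/EID samples. Of 8 endothelial markers 0 were called by limma or edgeR, against 2.23% of all genes by limma, and DESeq2 called 2, Esam and Vwf, both higher. The log2 difference was positive for 7 of the 8, with a median of 1.75, and 6 had an unadjusted p under 0.05 from limma, against 15.2% of all genes. Their summed values were 321.9 to 1139 in WT against 2702 to 4105 in Elmo2EID/EID samples, with none of the 8 at 0 throughout. Markers of Schwann cells (4 of 5 positive, median log2 difference 1.09), fibro-adipogenic cells (4 of 4 positive, 0.19) and macrophages (4 of 4 positive, 0.56) gave 0 calls by limma, edgeR or DESeq2, and the summed values were 15999 to 16960, 172.7 to 979.8 and 27.3 to 59.4 in WT against 15247 to 15464, 382.8 to 792.5 and 40.3 to 192.3 in the mutant samples. The Schwann sum was set almost entirely by Erbb3 (16376 ± 509 in WT and 15119 ± 73.7 in the mutant, n = 3 and 2), the marker of the list with a negative difference. The part of such cells in the values of Ndufs5 and BC002163 was not tested.

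In WT replicates 1, 2 and 3 Ndufs5 stood at 1353, 1307 and 1413 normalized counts, and in Elmo2EID/EID replicates 1 and 2 at 138 and 114. The groups were far apart, with the lowest WT sample above both mutant samples and a ratio of 1.08 between the highest and lowest WT samples. The mean was 1357.6 ± 53.5 (SD, n = 3) for WT against 125.8 ± 16.9 (SD, n = 2) for Elmo2EID/EID myoblasts, 10.8-fold lower in the mutant or a log2 difference of -3.43. Among the 18156 genes this was the 11th largest decrease on the scale of log2(normalized count + 1). The values rest on 1531, 1165 and 1137 reads in WT and on 154 and 127 reads in Elmo2EID/EID samples, all far above the floor of 3 reads. In bulk samples, fewer cells that transcribe a gene and less RNA per cell cannot be told apart. Whether reads of Ndufs5 were assigned to its near-identical copy, or left out as matching both genes, was not tested.

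For BC002163 the WT samples gave 36.2, 32.5 and 27.3 normalized counts, and the Elmo2EID/EID samples gave 2155 and 1816. Again the groups did not overlap, and here both mutant samples were the high ones. Means were 32.0 ± 4.46 (SD, n = 3) for WT against 1986 ± 240 (SD, n = 2) for Elmo2EID/EID myoblasts, a ratio of 62.0 and a log2 difference of 5.91. It was the 14th largest increase among the 18156 genes. In WT the copy was counted at a low level that exceeded the floor in every sample, with 41, 29 and 22 reads, against 2410 and 2026 reads in the mutant samples. Groups without overlap were common in this comparison, at 32.6% of all genes tested, and 2.23% of all genes (404 of 18156) had an adjusted p under 0.05 from limma with Benjamini-Hochberg adjustment. Neither share is read as a result about the pair, whose members were selected on this contrast.

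Both genes differed between the Elmo2EID/EID samples in the same direction. Replicate 1 exceeded replicate 2 by a factor of 1.21 at Ndufs5 and of 1.19 at BC002163, and the summed value of the other 35 nuclear complex I subunits did so by 1.09. Between WT samples the highest value of the copy exceeded the lowest by a factor of 1.32, on counts of 22 to 41 reads.

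The values of parent and copy were then summed to see whether the loss of the parent and the gain of the copy balanced. The sum came to 1389, 1339 and 1441 normalized counts for the WT replicates, against 2293 and 1930 for the Elmo2EID/EID replicates. The sums of the groups did not overlap either, and the mutant samples were the high ones, with a gap of 489.4 between the lowest mutant and the highest WT sample. Its mean was 1389.6 ± 50.7 (SD, n = 3) for WT against 2112 ± 257 (SD, n = 2) for Elmo2EID/EID myoblasts, a ratio of 1.52 or a log2 difference of 0.60. Loss and gain therefore did not balance in the deposited values.

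Ndufs5 was lower in Elmo2EID/EID myoblasts by 1232 normalized counts, which is 90.7% of its WT mean. BC002163 was higher by 1954 normalized counts. The gain of the copy was 1.59 times the loss of the parent, and this factor lay between 1.38 and 1.82 over the 6 pairings of a mutant with a WT sample. Put the other way, the loss of the parent covered 63.0% of the gain of the copy, and the sum was higher by 721.9 normalized counts, between 489.4 and 953.8 over the 6 pairings. The excess was thus of the same sign in every pairing, but its size is known only within the spread of the mutant samples. Read pairs that matched both genes equally well are in neither count, and the number left out in each genotype was not analysed here.

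**Figure D2:**
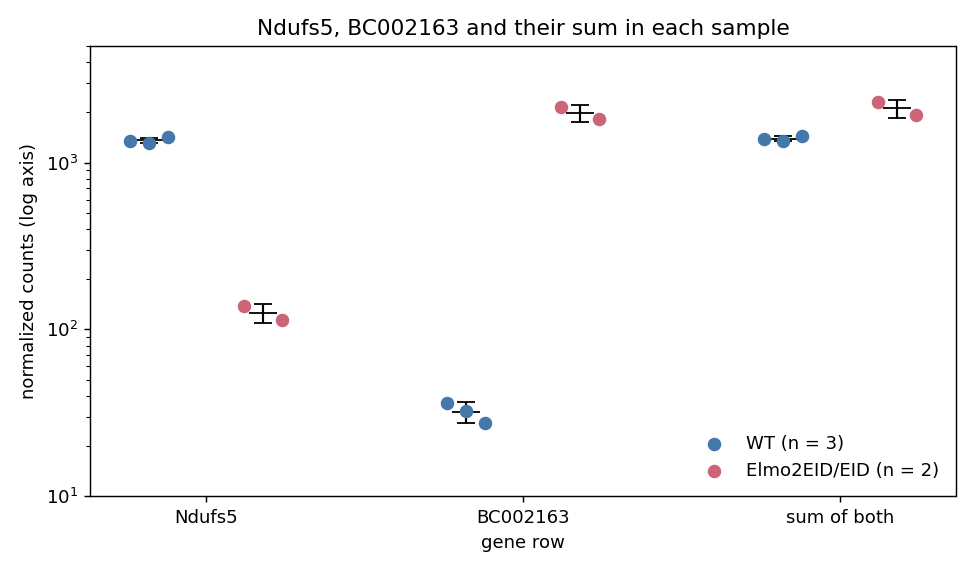
Normalized counts (log axis) of Ndufs5, BC002163 and their sum in each sample, with points for the WT (n = 3) and Elmo2EID/EID (n = 2) samples and black lines for the mean and SD. Parent and copy change places between the genotypes, and the mutant sums of 2293 and 1930 lie above the WT sums of 1339 to 1441.

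As a share of the reads of the pair, which does not depend on the scaling of a sample, BC002163 took 2.61% in WT replicate 1 (95% exact Clopper-Pearson interval 1.88% to 3.52%), 2.43% in WT replicate 2 (1.63% to 3.47%) and 1.90% in WT replicate 3 (1.19% to 2.86%). In the Elmo2EID/EID samples it took 94.0% (93.0% to 94.9%) and 94.1% (93.0% to 95.1%). The mean shares were 2.31% ± 0.369 (SD, n = 3) and 94.0% ± 0.0760 (SD, n = 2), which are 91.7 percentage points apart. The intervals of the WT samples overlap each other, as do those of the mutant samples. They cover counting error only. The share was thus nearly the same in both mutant samples although their sums differed.

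In 3 other pairs of a parent and its copy the share was far lower, and shares for further copies were not computed. Ftl1 encodes the ferritin light chain, Eno1 the glycolytic enzyme enolase 1 and Rps13 a protein of the small ribosomal subunit, and each has a copy that was also counted higher in the mutant samples. Ftl2-ps took on average 0.00768% of the reads of its pair in WT against 9.45% ± 0.461 (SD, n = 2) in Elmo2EID/EID myoblasts. Eno1b took 0.0472% in WT and 6.84% ± 0.244 (SD, n = 2) in the mutant. Rps13-ps1 took 0.0107% in WT and 8.52% ± 0.437 (SD, n = 2) in the mutant. In WT replicates 1, 2 and 3, Ftl2-ps had 2, 0 and 1 reads, Rps13-ps1 had 1, 1 and 0, and Eno1b had 7, 9 and 5. The WT shares of Ftl2-ps and Rps13-ps1 thus rest on counts under the floor of 3 reads. For these pairs the parent kept most of the reads in both genotypes, whereas Ndufs5 kept them in WT samples alone.

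The balance of these pairs was described in the same way, but with the named copy only. Further copies of these parents were not searched for, whereas BC002163 was the only annotated match of the Ndufs5 coding sequence at the thresholds above. Sums of these pairs may therefore leave out reads assigned to other copies. The sum of parent and copy in Elmo2EID/EID myoblasts was 0.733 of that in WT for Ftl1, 0.899 for Eno1 and 0.939 for Rps13, against 1.52 for Ndufs5. The gain of the copy was 0.205, 0.378 and 0.567 times the loss of the parent for these pairs, against 1.59 for BC002163. Over the 6 pairings of samples the sum was lower in the mutant in all for Ftl1 and Eno1, but for Rps13 it ran from -659.7 to 156.0 normalized counts and the groups overlapped, so its balance has no settled sign. The differences between the pairs were not tested, since all were chosen for their values in this comparison.

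**Figure D3:**
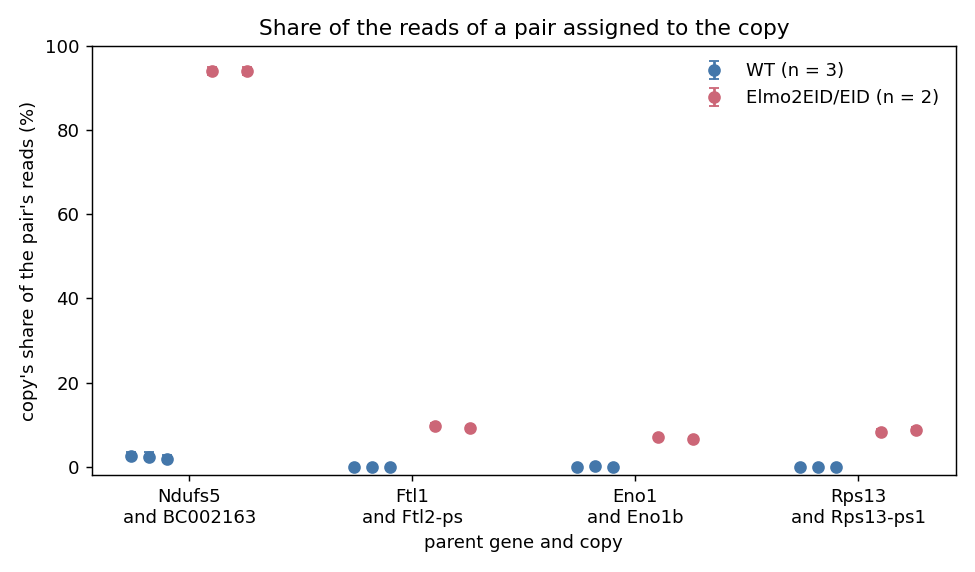
Share of the reads of each parent and copy that was assigned to the copy, in percent, in each WT (n = 3) and Elmo2EID/EID (n = 2) sample, with 95% exact Clopper-Pearson intervals, most of them smaller than the points. BC002163 took 94.0% and 94.1% in the mutant samples, and the other copies took under 10%.

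To place these values among genes for the same complex, levels were divided by exon length, 860 bases for Ndufs5 and 319 for BC002163 in GENCODE M21. The study names an older Ensembl annotation for its counts, whose gene lengths may differ, and levels and ranks per kilobase rest on the GENCODE lengths. The 860 bases merge the exons of all annotated Ndufs5 transcripts, while the transcript mapped above has 525 bases. A shorter length would raise the level of Ndufs5 and can change its rank. Read pairs that matched parent and copy equally well are in neither count, which can lower the levels of both. Ndufs5 stood at 1579 normalized counts per kilobase in WT, 28th of 36 nuclear subunits, between Ndufa7 at 1643 and Ndufc1 at 1509. The other 35 ranged from 215 to 7379 per kilobase with a median of 2494. In Elmo2EID/EID myoblasts Ndufs5 stood at 146 per kilobase and was the last of the 36, below a range of 207 to 7749 for the others. The sum of parent and copy divided by the length of Ndufs5 gave 1616 per kilobase in WT and 2455 in the mutant, which would be the 28th and the 19th place. BC002163 itself stood at 100 per kilobase in WT and 6225 in Elmo2EID/EID myoblasts.

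The other subunits of complex I were a separate readout, since they were not used to choose the pair. Of 41 tested subunits, 0 had an adjusted p under 0.05 from limma, from edgeR or from DESeq2, and 0 had an unadjusted p under 0.05 from limma. Over all genes these shares by limma were 2.23% with an adjusted and 15.2% with an unadjusted p below it. Their log2 differences ran from -0.26 to 0.13 with a median of -0.0038, and the median over all genes was 0.0109. Among the 35 nuclear subunits 18 were positive and 17 negative, the range was -0.13 to 0.13 with standard errors of 0.057 to 0.102, and 0 reached the log2 difference of 0.60 of the sum of Ndufs5 and BC002163.

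The highest values were those of Ndufb5, a membrane-arm accessory subunit, at 0.13 (4790 ± 228 in WT, n = 3, against 5253 ± 311 in Elmo2EID/EID, n = 2, limma adjusted p = 0.441), of the core iron-sulfur subunit Ndufs1 at 0.12 and of Ndufb7 at 0.12. Ndufb7 is a twin CX9C subunit of the membrane arm like NDUFS5, and had 4075 ± 268 and 4427 ± 341 normalized counts (limma adjusted p = 0.56). The lowest were those of the mitochondrially encoded mt-Nd3 at -0.26 and mt-Nd2 at -0.13 and of Ndufc2 at -0.13, the last with 2768 ± 62.0 and 2538 ± 101 normalized counts (limma adjusted p = 0.411). Core subunits that carry or surround the iron-sulfur clusters include Ndufs3, Ndufs7 and Ndufs8, with log2 differences of 0.05, 0.05 and 0.04. The accessory subunits Ndufs4 and Ndufs6 had log2 differences of 0.01 and -0.11. No other tested subunit of the complex had a log2 difference below -0.26, against -3.43 at Ndufs5.

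**Figure D4:**
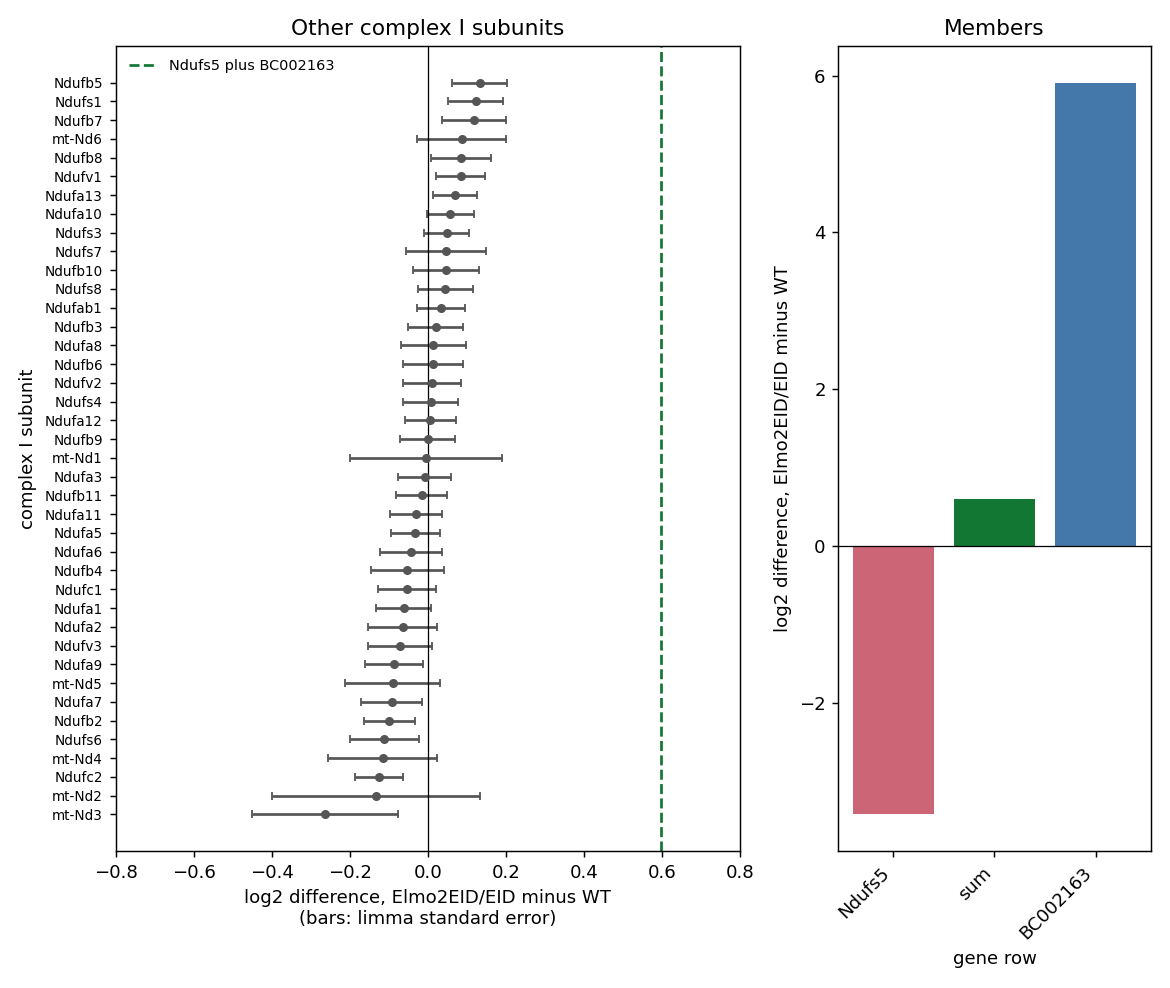
Log2 difference, Elmo2EID/EID minus WT, of the complex I subunits named on the axis with limma standard errors (left), and of Ndufs5, BC002163 and their sum as bars from 0 (right, on a wider axis). All subunits drawn lie between -0.26 and 0.13, left of the dashed line at 0.60 for the sum.

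Genes that act on complex I subunits before or during assembly were described in the same way. Of 17 tested assembly factors, 0 passed the threshold by limma (2.23% of all genes did), 3 had an unadjusted p under 0.05 (15.2% of all genes did), and log2 differences ran from -0.34 to 0.19 with a median of 0.03. The lowest was Ndufaf2, a chaperone of late assembly, with 512 ± 25.6 (SD, n = 3) and 404 ± 7.02 (SD, n = 2) normalized counts (limma adjusted p = 0.142). The other members with an unadjusted p under 0.05 were Ndufaf4 at 0.19 and Timmdc1 at 0.17 (limma adjusted p = 0.282 and 0.269), and all of these were named after their values were seen. Of 24 tested genes for twin CX9C proteins and import into the intermembrane space, 0 passed by limma and 1 had an unadjusted p under 0.05, against 2.23% and 15.2% of all genes. Chchd4, the import receptor and oxidase of such proteins, had 1382 ± 58.6 in WT and 1354 ± 81.9 in the mutant (limma adjusted p = 0.897), and its partner oxidase Gfer had 1207 ± 74.7 and 1132 ± 81.0 (limma adjusted p = 0.689). Coa4, a twin CX9C protein of cytochrome c oxidase assembly, was named after its values were seen. It had 236, 218 and 270 normalized counts in WT and 379 and 348 in Elmo2EID/EID samples, a log2 difference of 0.59 with a limma adjusted p of 0.0821. DESeq2 called it, and edgeR did not.

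Neighbouring genes were examined on both chromosomes. BC002163 lies on the same strand as Zbtb20, which encodes a zinc finger transcription repressor, and inside one of its introns. None of the exons of the 21 annotated Zbtb20 transcripts overlaps the copy (0 exons), and the nearest are 41087 bases before it and 51069 bases after it. Zbtb20 had 21209, 23945 and 20134 normalized counts in WT and 23467 and 27046 in Elmo2EID/EID samples. The groups overlapped, and the log2 difference was 0.22 (standard error 0.10, limma adjusted p = 0.376). Of the 7 tested genes within 1 Mb of BC002163, 0 passed the threshold by limma, edgeR or DESeq2 and 0 had an unadjusted p under 0.05 from limma. At 2.23% and 15.2% of all genes, so few genes give little to compare. Besides Zbtb20 the nearest were Gm19522 at 43.6 kb (log2 difference -0.07), Gm9968 at 389.9 kb (-0.19), Gap43 at 615.0 kb, Tigit at 692.9 kb (0.36) and Qtrt2 at 905.5 kb (0.13).

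Within 1 Mb of Ndufs5, 29 of 58 annotated genes were tested and 1 passed the threshold, 3.45% against 2.23% of all genes. This was Gm12901, itself a processed pseudogene, 453.8 kb away, with 0 reads in all WT samples and 14.3 and 10.8 normalized counts in the mutant samples, at least 3.36-fold higher by a floor of 3 reads per library (limma adjusted p = 0.0214). It was not called by edgeR or DESeq2, with the replicate block, or by limma without Elmo2EID/EID replicate 1 or 2 or WT replicate 1 or 2, and was called without WT replicate 3. Heyl, a gene for a Notch-responsive transcription repressor 462.8 kb away, had the lowest log2 difference of these neighbours, with 1789, 1338 and 1478 normalized counts in WT and 817 and 366 in the mutant samples (-1.48, limma adjusted p = 0.0739). It was named after its values were seen, and DESeq2, the replicate block, the crossed block and limma without Elmo2EID/EID replicate 1 called it, as DESeq2 did Mycl. The nearest genes on either side were not called. Gm12922 at 2.7 kb had a log2 difference of 0.81 (limma adjusted p = 0.601), and Macf1 at 28.4 kb, which encodes a linker of microtubules and actin, had 0.34 (limma adjusted p = 0.294). Gm12925 at 41.5 kb had 0.17 (limma adjusted p = 0.903). On the other side Akirin1 at 16.4 kb, a gene for a nuclear protein, had 3925 normalized counts in WT and 3448 in the mutant (log2 difference -0.19, limma adjusted p = 0.347), and Rhbdl2 at 69.7 kb, a rhomboid protease gene, had -0.87 (limma adjusted p = 0.374). Gm26606 at 180.4 kb had 0.49 (limma adjusted p = 0.485). None of these adjacent genes had a difference of the size seen at Ndufs5, and for Gm12901, which passed the filter on low values only through the mutant samples, the counts give only the lower bound above. Ftl2-ps, the copy of Ftl1 described above, also lies on this chromosome, 1786.1 kb from Ndufs5 and outside the window.

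**Figure D5:**
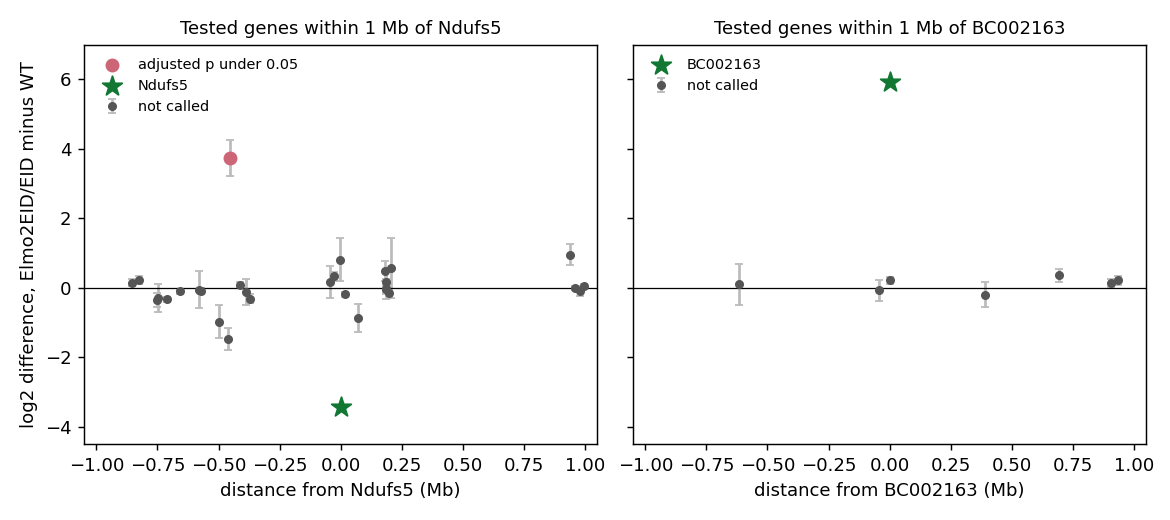
Log2 difference, Elmo2EID/EID minus WT, of the tested genes within 1 Mb of Ndufs5 (left, 29 genes) and of BC002163 (right, 7 genes) by distance in Mb, with limma standard errors as bars and the members as stars. Gm12901 alone passed the threshold by limma, and the nearest genes on either side lie closer to 0 than the members.

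The genes with the profile most like that of Ndufs5 over the 5 samples were found from the root mean square difference of log2(normalized count + 1), each gene centred on its own mean, among genes whose mean reached 100 normalized counts. They were Lynx1, which encodes a modulator of acetylcholine receptors (0.139), Rab6b, a small GTPase gene of Golgi traffic (0.277), Gpr20 (0.344), Sema5a, a semaphorin gene (0.495), and Dpp6, a gene for a potassium channel subunit (0.548). Lynx1 had 1805, 2365 and 2203 normalized counts in WT and 212 and 178 in Elmo2EID/EID samples. For BC002163 the closest were Gm3375 (0.197), Rps3a3 (0.214), Gm10036 (0.367), Eif3s6-ps2 (0.455) and Gm8730 (0.473), all 5 annotated as processed pseudogenes. Rps3a3 had 60.1, 65.1 and 49.7 normalized counts in WT and 2720 and 2944 in the mutant samples. The share of processed pseudogenes among all genes compared was not computed, so their number here is not read as a result. The measure rests on 5 samples in 2 groups and is given as a description.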

How the data were processed

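RNA was enriched for poly-A, made into stranded libraries and sequenced as 50-base read pairs. The authors placed the untrimmed reads on GRCm38 with STAR 2.5.1b, used featureCounts 1.4.6 with its reverse-stranded setting to count uniquely mapped reads, and deposited for each gene a signal that is its read count over the size factor from DESeq2 1.34.0. The smallest positive value of a sample was taken as 1 read, which made 100.0% of the positive values whole to within 0.01 of a read. Differences between replicates exceeded sampling noise (chi-square per degree of freedom 26.6 to 37.8).

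Differences are Elmo2EID/EID minus WT on log2(normalized count + 1), which understates those of low genes. The 18156 genes that reached 5 normalized counts in any 1 sample were fitted with limma (two-sided eBayes test with trend) with no block for the replicate number, and called where the Benjamini-Hochberg adjusted p was under 0.05. Alternatives were other pseudocounts, filters and normalizations, limma without the trend, edgeR and DESeq2 on the recovered reads, the replicate number as a block, other windows around the members, and leaving out each sample. The crossed block was added after the data were seen. A self-test of limma, edgeR and DESeq2 was run after the fits, on counts simulated from the gene means of these data.

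The members and gene lists were chosen with earlier results of these data known. Genes named are the members, other annotated matches of the Ndufs5 coding sequence (blastn), the subunits whose symbols begin with Ndufs (1 gene is not reported here), called members of the lists, the 3 highest and 3 lowest complex I subunits, Chchd4 and Gfer, the 3 nearest tested genes on each side of a member and called genes within 1 Mb, the 5 genes most alike in profile to each member, 3 other parents and copies, and Elmo2. Names, positions and transcripts came from GENCODE M21, which matched 54165 of 54232 identifiers. The authors' methods name an older Ensembl annotation, so the gene models counted may differ. R 4.3.3, limma 3.58.1, edgeR 4.0.16, DESeq2 1.42.0, Python 3.11.15, pandas 2.3.3, scipy 1.17.1 and blastn 2.17.0 were used.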

Additional observations from a re-analysis of the deposited data

How the results depend on the processing

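The differences at Ndufs5, at BC002163 and at their sum kept their direction under every alternative run. Without one sample, the log2 difference lay between -3.56 and -3.29 for Ndufs5 and between 0.47 and 0.72 for the sum, and the lowest and highest values came from leaving out Elmo2EID/EID replicate 1 or 2. With the replicate block the log2 differences were -3.40 for Ndufs5, 5.81 for BC002163 and 0.62 for the sum. The counts of complex I subunits, assembly factors and genes near BC002163 called stayed at 0 under every alternative. Over all genes, 404 calls became 969 with DESeq2, 144 with limma without the trend, 155 with no filter, 224 with the replicate block and 1041 with the crossed block, and 34 (without Elmo2EID/EID replicate 2) to 335 (without WT replicate 3) when 1 sample was left out. Without Elmo2EID/EID replicate 1 there were 94 calls, without WT replicate 1 134 and without WT replicate 2 203. Among genes of import and twin CX9C proteins, 0 calls became 1 (Coa4) with DESeq2 and with the crossed block. Near Ndufs5, 1 call (Gm12901, higher) became 2 with DESeq2 (Heyl and Mycl, both lower), 2 with the crossed block (Gm12901 and Heyl), 0 with edgeR, 3 within 2 Mb (with Grik3 and Ftl2-ps), and 0 to 1 when 1 sample was left out (0 without Elmo2EID/EID replicate 2, WT replicate 1 or WT replicate 2). With the replicate block and without Elmo2EID/EID replicate 1 the single call was Heyl, lower, in place of Gm12901. The causes were not tested. The labels give replicate numbers that the genotypes share. The headers of the counts add a further number that differs in every sample and whose meaning is not stated. Differences between replicates 1 and 2 had a correlation of -0.27 between the genotypes over 12298 genes, and with 2 numbers in common this does not show a pairing. The depth limits genes near 3 reads and neither Ndufs5 nor its copy in any sample.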
